A study of Mus musculus with 14 samples.

Results

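Zeb2 was set against p300 in mouse gastruloids by chromatin immunoprecipitation and sequencing (ChIP-seq), with 2 libraries for each protein out of the 14 libraries of the series. Gastruloids are aggregates of mouse embryonic stem cells that elongate and form the early embryonic lineages in culture; here aggregates of 300 cells were exposed to 3 µM CHIR99021, a Wnt pathway activator, from 48 h and collected at 120 h. Each protein carried a tag at its endogenous gene in the E14 triple reporter line. The Zeb2 line carried an HA tag joined to the FKBP12F36V degron and was precipitated with HA antibodies, and the p300 line carried a V5 tag joined to miniTurboID, a proximity-labelling enzyme, and was precipitated with a V5 antibody. The Zeb2 and p300 libraries therefore differed in cell line, tag and antibody as well as in protein, and these cannot be told apart. The only gastruloid input came from the p300 line, so the Zeb2 line had no input of its own. The labels name a triple reporter line where the culture protocol names a dual reporter, and they do not say whether the 2 replicates of a protein were separate cultures or whether each line was 1 clone.

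Zeb2 is a zinc-finger and homeodomain repressor whose zinc-finger clusters bind E-boxes with the core CACCTG, which reads CAGGTG on the other strand. It recruits CtBP and the NuRD complex, binds activated SMAD proteins, and is known for shutting off E-cadherin and other epithelial genes in epithelial-mesenchymal transition and for roles in neural crest and neural development. p300 is an acetyltransferase coactivator without a DNA sequence preference of its own; it is brought to DNA by transcription factors, acetylates histones, and its peaks are widely used to map active enhancers and promoters. The comparison asks where a repressor and a coactivator of the same culture stage were found together and where each was found alone.

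A region was a merged stretch of overlapping peaks with a peak in both replicates of a protein, and any peak that overlapped an input peak was left out. The Zeb2 lists held 44310 and 12222 usable peaks in replicates 1 and 2, against 63117 and 75346 for p300, and the median peak held 17 and 12 sequenced fragments at its summit for Zeb2 and 23 and 18 for p300. They gave 10172 Zeb2 regions and 53025 p300 regions. The Zeb2 replicates were unequal: 23% of the peaks of replicate 1 and 88.1% of those of replicate 2 lay in a Zeb2 region, against 84.1% and 72.3% for p300. Depth was not given in the sources used here, and presence or absence in a list is not a height. Peak lists do not measure expression, so the gastruloid label was not checked against marker genes. A missing peak may be a site with too few fragments, and fewer bound cells and less binding per cell cannot be told apart.

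The 6 promoters below are shown as examples of Zeb2 E-boxes under Zeb2 summits, with and without p300. Each is a RefSeq window of the build GRCm38 from 250 bases before to 50 after a start of transcription, written 5′ to 3′ along the gene, with CACCTG and CAGGTG in capitals. The first pair had no p300 region: Epha1, an Eph receptor gene with the strongest Zeb2-only promoter (chr6:42373219-42373518, minus strand), and Crb3, an apical polarity gene (chr17:57061951-57062250, plus strand). The others had p300: Cldn4 (chr5:134946885-134947184, minus strand) and Cldn7 (chr11:69965171-69965470, plus strand) encode claudins of the tight junction, Lsr (chr7:30973420-30973719, minus strand) encodes angulin-1 of tricellular junctions, and Map7 (chr10:20148670-20148969, plus strand) encodes a microtubule-binding protein of epithelial cells.
Epha1: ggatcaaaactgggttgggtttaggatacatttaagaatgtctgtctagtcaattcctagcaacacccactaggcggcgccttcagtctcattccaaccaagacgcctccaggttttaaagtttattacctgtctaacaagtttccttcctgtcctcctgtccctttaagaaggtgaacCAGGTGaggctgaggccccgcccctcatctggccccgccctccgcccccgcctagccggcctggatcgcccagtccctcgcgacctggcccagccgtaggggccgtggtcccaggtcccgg
Crb3: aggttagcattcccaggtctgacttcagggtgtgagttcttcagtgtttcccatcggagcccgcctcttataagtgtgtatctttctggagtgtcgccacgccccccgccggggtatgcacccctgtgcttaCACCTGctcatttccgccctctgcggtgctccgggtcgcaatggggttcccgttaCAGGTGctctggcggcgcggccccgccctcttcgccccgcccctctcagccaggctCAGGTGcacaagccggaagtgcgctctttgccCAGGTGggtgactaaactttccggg
Cldn4: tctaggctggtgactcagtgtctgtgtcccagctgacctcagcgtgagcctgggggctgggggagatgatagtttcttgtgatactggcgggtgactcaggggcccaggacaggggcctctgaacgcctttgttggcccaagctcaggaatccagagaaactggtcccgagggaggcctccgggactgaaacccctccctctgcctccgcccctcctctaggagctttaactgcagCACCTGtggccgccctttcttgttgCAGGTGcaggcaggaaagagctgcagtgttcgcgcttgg
Cldn7: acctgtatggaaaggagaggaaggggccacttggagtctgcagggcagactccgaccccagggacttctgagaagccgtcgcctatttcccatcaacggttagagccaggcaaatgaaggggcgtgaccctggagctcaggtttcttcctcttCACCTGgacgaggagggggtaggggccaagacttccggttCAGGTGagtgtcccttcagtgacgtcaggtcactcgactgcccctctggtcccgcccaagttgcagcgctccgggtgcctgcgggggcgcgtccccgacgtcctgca
Lsr: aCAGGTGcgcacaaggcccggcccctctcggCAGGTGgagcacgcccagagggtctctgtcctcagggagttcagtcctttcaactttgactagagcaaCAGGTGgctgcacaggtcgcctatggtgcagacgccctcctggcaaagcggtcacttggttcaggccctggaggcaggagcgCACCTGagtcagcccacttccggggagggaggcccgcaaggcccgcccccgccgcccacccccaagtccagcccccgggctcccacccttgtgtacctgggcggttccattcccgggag
Map7: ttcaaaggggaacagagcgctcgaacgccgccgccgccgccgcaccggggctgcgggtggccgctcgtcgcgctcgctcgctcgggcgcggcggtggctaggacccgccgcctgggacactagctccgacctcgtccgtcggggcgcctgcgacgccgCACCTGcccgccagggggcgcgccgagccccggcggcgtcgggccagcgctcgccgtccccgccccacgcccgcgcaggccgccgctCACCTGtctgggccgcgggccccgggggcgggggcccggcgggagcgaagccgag
In the Epha1 window the single box starts at base 180 and the Zeb2 summit fell on base 179. In Cldn4 the boxes start at bases 237 and 262, on either side of a Zeb2 summit at base 257. Crb3 and Lsr hold 4 boxes each, and Cldn7 and Map7 hold 2 each. In Cldn7 the boxes start at bases 154 and 194 and the Zeb2 summit fell farther off, on base 266.

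Most Zeb2 regions held p300, and most p300 regions lacked Zeb2. Of the 10172 Zeb2 regions, 7964 overlapped a p300 region (78.3%, 95% Wilson interval 77.5 to 79.1%). Of the 53025 p300 regions, 7950 overlapped a Zeb2 region (15.0%, 14.7 to 15.3%). These intervals cover counting error over regions only. Library by library the share at a region of the other protein was 51.4% and 69.3% of the Zeb2 peaks (60.3 ± 12.6%, SD, n = 2) and 13.2% and 11.5% of the p300 peaks (12.4 ± 1.21%, SD, n = 2). The shares of the Zeb2 lists lay above those of the p300 lists. This order is largely set by list size, since the same overlaps are divided by 10172 Zeb2 regions and by 53025 p300 regions. It is therefore not a result about the proteins, and the exact permutation test of 2 libraries against 2 cannot go below p = 0.333. The overlap depends on how it is defined and on the length of the lists. With Zeb2 and p300 summits required to lie within 200 bp the Zeb2 share was 49.9%. With all 4 lists, Zeb2 and p300, trimmed to their 12222 peaks of highest −log10 q, the Zeb2 share was 23.1%. The p300 share depends on the short Zeb2 replicate, and was 40.7% when Zeb2 replicate 2 was left out.

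The Zeb2 peaks seen in 1 replicate alone were less often at p300. In replicate 1, 78.2% of the peaks inside Zeb2 regions and 43.4% of the 34137 outside them overlapped a p300 region, and in replicate 2 the shares were 75.7% inside and 21.6% of 1449 outside. The 2208 Zeb2 regions without p300 were for the most part empty of p300 peaks: 1399 (63.4%) had none in either p300 list, 332 had one in replicate 1 only, 452 in replicate 2 only, and 25 had separate peaks in both. Of the 45075 p300 regions without Zeb2, 31171 (69.2%) had no Zeb2 peak at all, 13606 (30.2%) had one in Zeb2 replicate 1 only and 260 in replicate 2 only.

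Stronger Zeb2 peaks were more often at p300. Each peak was ranked inside its own list by the authors' fold enrichment, the ratio of signal at the summit to local background. From the weakest to the strongest decile of Zeb2 replicate 1 the share with p300 ran from 29.6% to 82.2%, and in replicate 2 from 55.8% to 83.2%. Zeb2 regions with p300 had median Zeb2 folds of 7.59 and 5.45 in replicates 1 and 2, against 6.45 and 5.08 in those without. In percentiles of their own lists this is 85.7 and 57.8 with p300 and 76.9 and 46.9 without, a difference of 8.85 and 10.9 points, over the 5 points set as the threshold in both replicates. The mean of the 2 fell to 4.78 points among peaks with a −log10 q of at least 5, below the threshold. Zeb2 regions with p300 were also wider, with a median of 729 bp against 488 bp without. The classes were set by an overlap of 1 bp, which a wider region meets more easily, so width and class are not independent.

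For p300 the order depended on where the region lay. Over all regions the median p300 folds were 6.03 and 6.76 with Zeb2 and 6.10 and 6.87 without, a difference of -1.68 and -0.98 percentile points that is below the threshold. Away from gene ends the p300 folds were 7.69 and 9.0 with Zeb2 and 6.39 and 7.12 without, 12.9 points higher with Zeb2 in each replicate. At gene ends, where a summit lies within 1 kb of either end of a protein-coding gene, they were 5.38 and 5.95 with Zeb2 and 5.08 and 5.55 without, higher by 5.08 and 6.50 points. This split was chosen after seeing the data, and the pooled and the split comparisons have opposite signs. The strongest decile of the p300 lists held only 2.49% and 3.13% of its peaks at gene ends. Among distal p300 peaks the share with Zeb2 ran from 6.54% and 5.70% in the weakest deciles to 17.4% and 16.9% in the strongest, and at gene ends it rose to 50.5% and 46.4% in decile 8 and was 29.9% and 35.2% in the strongest.

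**Figure D1:**
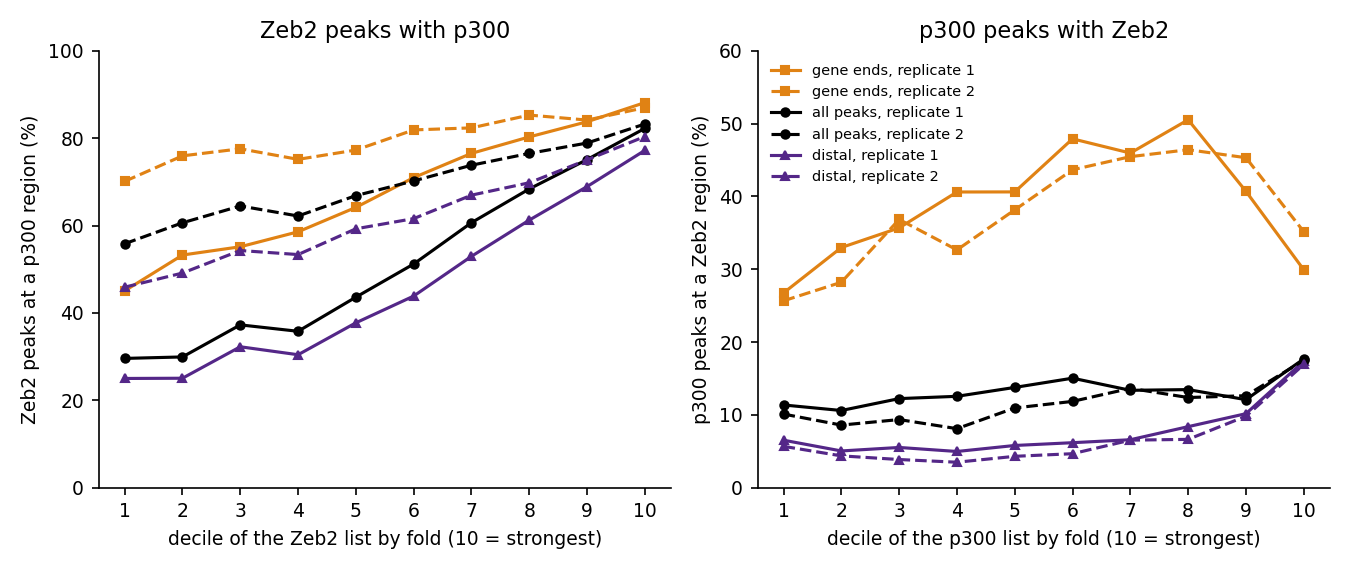
Share of peaks that overlap a region of the other protein (y axis, percent) by decile of the list ranked by fold (x axis, 10 is strongest), for Zeb2 peaks on the left and p300 peaks on the right; squares are peaks at gene ends, circles all peaks and triangles distal peaks, with replicate 1 solid and replicate 2 dashed. The Zeb2 curves climb to 82.2% and 83.2% over all peaks, and gene-end p300 peaks lie above distal ones in every decile.

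Co-occupied regions lay at gene ends far more often than p300 regions alone. Of the p300 regions with Zeb2, 3988 (50.2%) had their summit at a gene end, against 5596 (12.4%) of those without Zeb2, a difference of 37.7 points (95% Newcombe interval 36.6 to 38.9; 38.2 and 38.7 in p300 replicates 1 and 2). Of the Zeb2 regions with p300, 3960 (49.7%) were at a gene end, against 660 (29.9%) of those without, a difference of 19.8 points (17.6 to 22.0; 23.5 and 21 in Zeb2 replicates 1 and 2). Turned round, 85.7% of the Zeb2 regions at gene ends and 72.1% of the distal ones held p300, and 41.6% of the p300 regions at gene ends and 9.12% of the distal ones held Zeb2. The Zeb2 difference in gene-end share does not survive every definition of overlap: it was -8.97 points when summits had to lie within 200 bp and -39.0 points when each list was trimmed to 12222 peaks. The p300 difference kept its sign and its call under every setting tried.

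The Zeb2 and p300 summits did not coincide at starts of transcription. The distance between them was a median of 124 bp over the 7964 shared Zeb2 regions, 188 bp at gene ends and 82 bp at distal sites. Over all 10172 Zeb2 regions the 2 replicates differed by a median of 48 bp, 58 bp at gene ends and 42 bp distal. Over all 53025 p300 regions they differed by 35 bp, 70 bp at gene ends and 31 bp distal. The distance between proteins exceeded these in both places, but it was taken over shared regions only. Shared regions were wider, with medians of 729 bp for Zeb2 and 794 bp for p300, against 488 and 478 bp without the other protein. Within 1 kb of a start of transcription in the RefSeq promoter table, which lacks chromosome 18, Zeb2 summits with p300 lay at a median of 112 bp downstream of the start (65.2% downstream) and those without p300 at 111.5 bp (62.7%). The p300 summits lay at 31 bp where Zeb2 was present (55.8% downstream) and at 1 bp where it was absent (50.1%). In the 3756 pairs of summits that shared a region, the median positions were 111 bp for Zeb2 and 17 bp for p300. Zeb2 lay downstream of p300 in 59.2% of the pairs, with 57.8% and 58.7% in replicates 1 and 2.

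**Figure D2:**
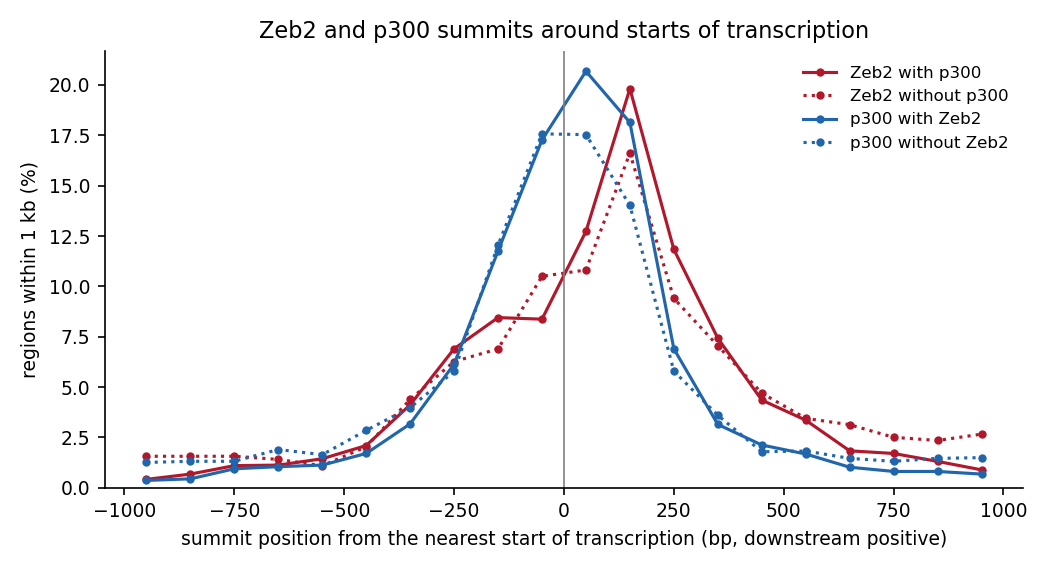
Share of regions within 1 kb of a start of transcription (y axis, percent) by position of the summit relative to the start (x axis, bp, downstream positive, bins of 100 bp), for Zeb2 regions (red) and p300 regions (blue) with the other protein (solid) and without it (dotted). Zeb2 summits peak downstream of the start with or without p300, at medians of 112 and 111.5 bp, while p300 summits centre near the start.

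Regions of one protein alone were not equally far from the other. The Zeb2 regions without p300 had a p300 region at a median distance of 6807 bp, and 59.8% had one within 10 kb. The p300 regions without Zeb2 had a Zeb2 region at a median distance of 63826 bp, and 11.8% had one within 10 kb. The p300 regions were the more numerous, which by itself shortens the first distance.

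Promoters with a Zeb2 summit held the Zeb2 E-box more often than promoters with p300 alone. Of the 32851 promoter windows, 20.2% held CACCTG or CAGGTG. Windows with the summit of a Zeb2 region that held p300 had it in 599 of 1260 cases (47.5%, 95% Wilson interval 44.8 to 50.3%), and those with the summit of a Zeb2 region without p300 in 115 of 177 (65.0%, 57.7 to 71.6%). Windows with a p300 summit and no Zeb2 region had it in 370 of 2744 (13.5%, 12.3 to 14.8%), and windows with neither summit in 19.5%. In a further class the window held the summit of a p300 region with Zeb2, but the Zeb2 summit lay outside the window. These had it in 240 of 1395 (17.2%, 15.3 to 19.3%), so the higher shares hold only for windows with the Zeb2 summit inside. The share among Zeb2 promoters with p300 was 17.4 points lower than among those without, a comparison chosen after seeing the data (Newcombe interval for the difference, with minus without, -24.6 to -9.65). This difference was -11.6 without Zeb2 replicate 1, -10.5 without Zeb2 replicate 2 and -5.39 when overlap was set by summits within 200 bp, more than 1.5 times smaller each time but still away from 0, and with lists trimmed to 12222 peaks its interval reached 0.16. Against p300 without Zeb2, the share of all Zeb2 promoters was 36.2 points higher (33.3 to 39.1), and between 25.2 and 35.5 points higher with any 1 library left out.

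Other E-boxes did not separate these classes. The E-box CAGCTG, preferred by MyoD, was in 17.1% of the Zeb2 windows with p300, 13.6% of those without, 17.5% of the windows with p300 alone and 16.3% of all windows. The E-box CACGTG, preferred by Myc, was in 13%, 12.4% and 12.1% of these 3 classes in the same order and in 7.15% of all windows. Zeb2 promoters minus promoters with p300 alone came to -0.90 points for CAGCTG (-3.25 to 1.54) and 0.88 points for CACGTG (-1.19 to 3.05). Both were searched after seeing the data. The GC box GGGCGG or CCGCCC, a binding site of Sp factors, was in 71.1% of the Zeb2 windows with p300, 65.5% without, 66.0% with p300 alone and 35.7% of all. The mean GC content was 64.0%, 62.2% and 62.5% in these classes and 53.8% over all windows, so GC-rich letters came with any summit. Each motif was searched on both strands, and a match of one cannot be a match of another, although neighbouring matches may share letters. From the Zeb2 summit to the nearest CACCTG or CAGGTG the median distance was 29.5 bp with p300 and 29.5 bp without. In the 336 windows with a box and both summits the box lay 29.5 bp from the Zeb2 summit and 57.5 bp from the p300 summit, and it was nearer to Zeb2 in 220 (65.5%) and nearer to p300 in 114.

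**Figure D3:**
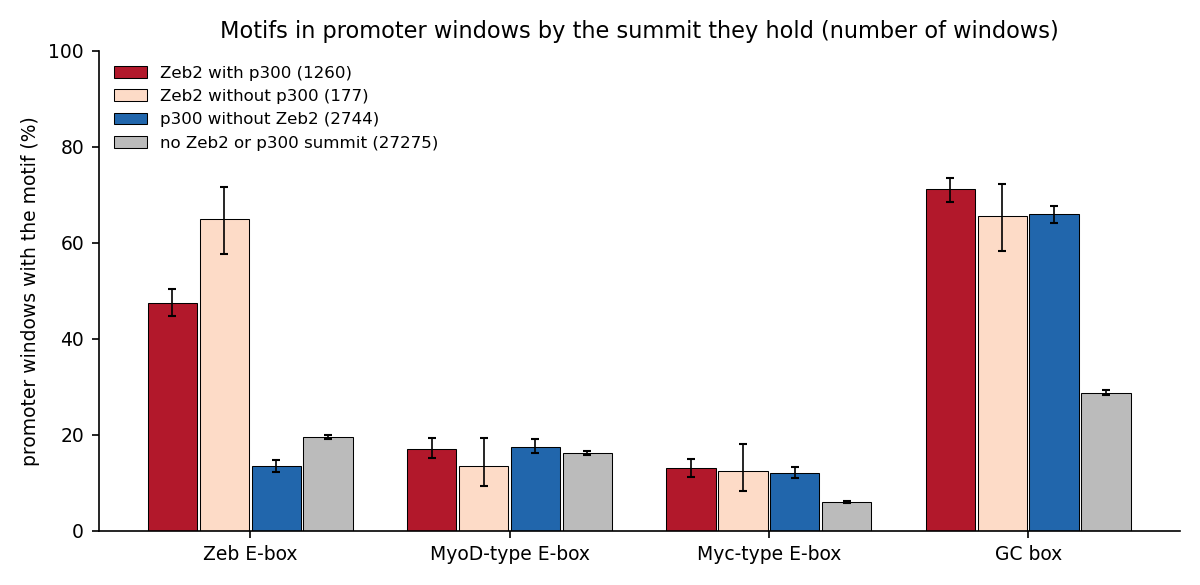
Share of promoter windows that hold each motif (y axis, percent; bars with 95% Wilson intervals, counting error only) for windows with the summit of a Zeb2 region with p300, of a Zeb2 region without p300, of a p300 region without Zeb2, or with no summit of either protein; windows with the summit of a p300 region whose Zeb2 summit lay outside the window are not drawn. The Zeb E-box separates the Zeb2 classes (47.5% and 65.0%) from p300 alone (13.5%), while the GC box is high in all 3. In the class not drawn the Zeb E-box was in 17.2% of the windows.

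Genes were counted by assigning each region to the nearest protein-coding gene end within 100 kb, which does not show which gene a region acts on. Of 21883 genes, 33.0% had a Zeb2 region, 27.4% one with p300 and 8.53% one without, and 68.3% had a p300 region. Of the assigned Zeb2 regions 78.1% held p300, and of the assigned p300 regions 17.1% held Zeb2. Among the genes with a p300 region 45.8% also had a Zeb2 region. These shares are the background for the lists below, and 12 of 14 lists had a higher share of genes with Zeb2 than all genes.

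The epithelial list stood highest by share of genes with Zeb2, but members and lists were chosen with earlier results of these data known. The order of the lists is therefore a description and not a test. The epithelial list holds the cadherins, claudins, desmosome and polarity genes and their regulators. Of its 43 genes 42 (97.7%) had a Zeb2 region, against 33.0% of all genes. Pkp3, a desmosomal plakophilin, had none. In 32 genes (74.4%) a Zeb2 summit lay at the gene end, against 20.8% of all genes. Without Zeb2 replicate 1 the count was 42 genes, against 35.8% of all genes, and without Zeb2 replicate 2 it was 43, against 69.1% of all genes, so the gap narrows when the long list stands alone. The 64 Zeb2 regions of the list had median folds of 8.17 and 6.08, at percentiles 88.9 and 71.2 of the Zeb2 lists, against 84.1 and 54.9 over all assigned regions. By peak rank the list lay above all assigned regions in both replicates, but it was not the highest in replicate 2. The 21 Zeb2 regions of the EMT list lay at 88.9 and 83.2, and the 9 of the adult tissue control at 75.6 and 80.7. The other lists lay below the epithelial list in both replicates. p300 was present at 45 of the 64 (70.3%), against 78.1% of all assigned Zeb2 regions, and at 23 of the 33 at gene ends (69.7%), against 85.7%. Zeb2 was present at 32.6% of the list's p300 regions, against 17.1% of all assigned ones. Of the 19 regions without p300, 12 had no p300 peak in either list, 6 had one in 1 replicate and 1 had separate peaks in both. With lists trimmed to 12222 peaks the p300 share of the list was 15%.

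E-cadherin itself, Cdh1, was one of 10 genes of the list whose Zeb2 regions all lacked p300. These are 23.8% of the 42 with Zeb2, against 1218 of 7217 (16.9%) over all genes. The Cdh1 region (chr8:106602911-106604458) had its summit 14 bp from the gene end and folds of 10.2 and 11.2 in replicates 1 and 2. The p300 lists had weak peaks in it with folds of 2.49 and 4.25, which did not overlap each other, so it was the region counted as separate p300 peaks. P-cadherin, Cdh3, had Zeb2 folds of 9.85 and 8.64 at its gene end and a p300 peak in replicate 2 only, with a fold of 3.70. Marveld3, a tight junction gene, had 2 Zeb2 regions near its ends, the stronger with Zeb2 folds of 17.7 and 13.3, and no p300 peak in either. Ovol2, which encodes a repressor of mesenchymal genes, had folds of 6.41 and 4.12 at its end with no p300 peak, and Rab25, a Rab GTPase of epithelial recycling, had 5.28 and 4.68 with none. Crb3, whose promoter is printed above, had Zeb2 folds of 10.6 and 7.20 and a p300 peak in replicate 1 only with a fold of 2.44.

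Other epithelial genes carried strong Zeb2 peaks beside p300. Cldn4 had Zeb2 folds of 10.4 and 10.1 and p300 folds of 7.85 and 9.60 at its promoter, and Lsr had Zeb2 folds of 15.1 and 11.4 with p300 folds of 8.30 and 8.61. Cldn7 had Zeb2 folds of 13.4 and 10.8 with p300 folds of 2.74 and 5.20. Patj, a polarity scaffold gene, had Zeb2 folds of 21.4 and 13.4 with p300 folds of 5.84 and 8.40. In all 4 the Zeb2 fold exceeded the p300 fold in each replicate, but folds of 2 antibodies are not on one scale and are given side by side only. Several genes held both kinds of region. F11r, which encodes junctional adhesion molecule A, had Zeb2 without p300 at its gene end (7.21 and 5.72) and Zeb2 with strong p300 at 2005 bp from it (Zeb2 7.31 and 6.26, p300 25.8 and 28). Esrp1, a splicing regulator of epithelial exons, had Zeb2 alone at its end (8.48 and 8.79) and a weaker region with p300 at 1685 bp from it (Zeb2 4.24 and 4.71, p300 3.14 and 3.63). Dsp, the desmoplakin gene, had 4 Zeb2 regions, the one at its end without p300 (3.97 and 4.89) and 3 distal ones with it, the strongest at Zeb2 folds of 19.3 and 13.2 and p300 folds of 18 and 20.7. Grhl2, a master regulator of epithelial genes, had 3 Zeb2 regions, all with p300, with Zeb2 folds of 12 and 11.2 at its end. Epcam, the epithelial adhesion molecule gene, had 2, both distal and with p300.

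Of the 27 epithelial genes in the promoter table, 8 had a Zeb2 summit inside a promoter window, and all 8 held CACCTG or CAGGTG there. Of all 32851 windows, 1437 (4.37%) held a Zeb2 summit, and 714 of these (49.7%) held the box. The 8 genes were F11r, Rab25, Patj, Cldn4, Spint2, Lsr, Cldn7 and Crb3.

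**Figure D4:**
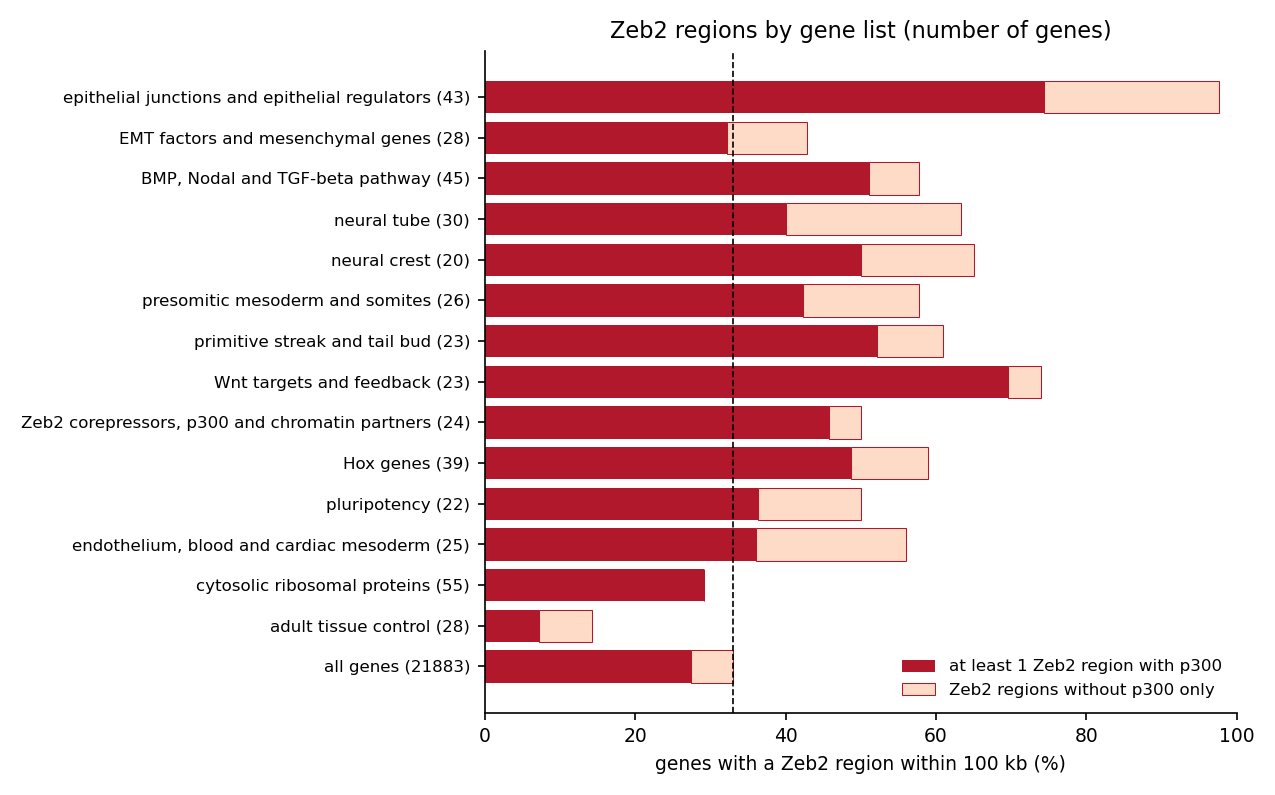
Share of the genes of each list with a Zeb2 region within 100 kb (x axis, percent), split into genes with at least 1 Zeb2 region with p300 (dark) and genes whose Zeb2 regions all lack p300 (light); the number of genes is in brackets and the dashed line marks all genes. The epithelial list reaches 97.7%, the ribosomal and adult lists lie below the line at 29.1% and 14.3%, and all genes are at 33.0%.

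The Wnt pathway list had the next highest share. Of 23 Wnt targets and feedback genes 17 (73.9%) had a Zeb2 region, and 31 of their 37 Zeb2 regions (83.8%) held p300, near the 78.1% of all assigned Zeb2 regions. Znrf3, which encodes a ubiquitin ligase that removes Frizzled receptors, had 6 Zeb2 regions with p300 and 1 without; the strongest had Zeb2 folds of 16.3 and 14.4 and p300 folds of 11.5 and 16.3. Its relative Rnf43 had 3 with p300 and 1 without, and Nkd1, a feedback inhibitor, had 3 with p300. Sp5, Tcf7 and Notum of the same list had no Zeb2 region but had 6, 6 and 2 p300 regions.

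By share of genes with Zeb2, the lists of mesodermal, neural and signalling genes lay between. By share of p300 regions with Zeb2 the order differed, with 17.1% over all assigned p300 regions. The somite list had 9.86%, EMT 10.9%, neural crest 11.5%, endothelial and cardiac 11.6% and neural tube 12.9%. BMP, Nodal and TGF-beta genes had 17.6%, Wnt genes 17.8% and primitive streak and tail bud genes 22.7%. Genes of these lists had medians of 3 to 7 p300 regions, against 1 over all genes. The primitive streak and tail bud list had Zeb2 at 14 of 23 genes (60.9%), with p300 at 68.6% of its 35 Zeb2 regions. T, the Brachyury gene, had 1 Zeb2 region at its end with Zeb2 folds of 5.24 and 3.78 and p300 folds of 6.12 and 6.54, and Lhx1 and Sp8 had 5 Zeb2 regions each. The somite list had 15 of 26 genes (57.7%) with p300 at 56% of the regions; Meox1, a somite homeobox gene, had 3 with p300 and 1 without, and Tbx18 had 3 without p300. The neural tube list had 19 of 30 (63.3%) with p300 at 60.6% of the regions. Sox2, a neural and pluripotency factor gene, had 3 with p300 and 1 without, the last lying 1033 bp from the gene with no p300 peak. The neural crest list had 13 of 20 (65%), with Msx1 and Tfap2a at 3 regions each and none at Sox10, which had no p300 region either. The endothelial and cardiac list had 14 of 25 (56%), none of them at a gene end, and p300 at 55% of its 20 regions. The EMT list had 12 of 28 (42.9%), with p300 at 71.4% of its 21 Zeb2 regions. Within it Tcf12 had 4 Zeb2 regions, all with p300, and Tcf4 had 3 with p300 and 1 without. Pdgfra, a receptor of mesenchymal cells, had 3 Zeb2 regions without p300, and Snai1 and Twist1 had no Zeb2 region.

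The Zeb2 gene had 2 distal Zeb2 regions, both with p300, the stronger with Zeb2 folds of 17.3 and 12.3 and p300 folds of 7.66 and 9.87, and 12 p300 regions without Zeb2. Zeb1, its paralogue, had 1 at its end with Zeb2 folds of 12.5 and 8.54 and p300 folds of 4.06 and 5.02. Of the BMP, Nodal and TGF-beta genes 26 of 45 (57.8%) had Zeb2, with p300 at 71.7% of the 46 regions. Smad7, an inhibitory SMAD gene, had 1 with p300 and 2 without, Smad6 had 2 and 2, and Id2, a BMP target, had 1 and 1; the Id2 region without p300 lay at the gene end and the other held p300 folds of 12 and 14.3. Among corepressor and coactivator genes 12 of 24 (50%) had Zeb2, near the 45.8% of genes with a p300 region; Ctbp1 had 1 region, and Ctbp2, Hdac1, Hdac2, Chd4, Kdm1a, Mta1 and Mta2 had none. Ep300, the p300 gene, had 2 Zeb2 regions near its end at Zeb2 folds of 6.26 and 3.99 and of 4.97 and 4.66, both over 1 p300 region.

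Hox genes had Zeb2 at weaker peaks. Of 39 Hox genes 23 (59.0%) had a Zeb2 region, 29 of 43 regions (67.4%) with p300, and 33.7% of their p300 regions held Zeb2, against 17.1% over all genes. Their median Zeb2 folds were 5.19 and 4.40, at percentiles 59.1 and 23.4, against 84.1 and 54.9 over all assigned regions. Hoxb4 had 4 Zeb2 regions, all with p300, and Hoxb1 had 2 of each kind. Pluripotency genes had Zeb2 at 11 of 22 (50%), with 13 of 17 regions at p300, including 3 at Sall4. The 2 lists below all genes were the cytosolic ribosomal proteins, with 16 of 55 (29.1%), and the adult tissue control, with 4 of 28 (14.3%).

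The regions with the highest Zeb2 folds included both classes. Those with p300 were led by Fa2h, a fatty acid hydroxylase gene (Zeb2 25.7 and 26.1, p300 6.68 and 5.43), and by a region inside Celsr1, a planar polarity cadherin gene (Zeb2 24.6 and 24.5, p300 20.5 and 20.9). Next came regions at Fdft1, Ezh1, Scg3, Clasp1, Gcc1 and Map7, with Zeb2 folds between 19.6 and 28.8. Those without p300 were led by a region over 100 kb from any gene end (Zeb2 33.4 and 28, nearest AI593442), followed by regions in or near Gphn, Epha1, Rimbp3, Fcgr3, Cacng4, Btbd16 and Stpg1. Epha1 had Zeb2 folds of 25.5 and 24.2 at its promoter and no p300 peak. The Gphn region, with Zeb2 folds of 35.1 and 25.3, had a p300 peak in replicate 2 only with a fold of 8.71. Fcgr3 also had one in replicate 2 only (6.32), and Cacng4 (4.26) and Stpg1 (3.81) had one in replicate 1 only, so the class of these 4 regions rests on 1 p300 library. By number of regions with p300 the leading genes included Tead1, a Hippo pathway factor gene, with 7, and Clybl, Hes1, Tns3 and Znrf3 with 6 each; Abr and Actn1 are the first by symbol of 14 genes with 5. Without p300 Zfp184, a zinc-finger gene, had 6, and Bcas1, Btn1a1, Cdk15 and Chl1 are the first by symbol of 19 genes with 3.

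The p300 regions with the highest folds were distal with or without Zeb2, which the ranking by fold makes likely. Only 2.49% and 3.13% of the peaks in the strongest deciles of p300 replicates 1 and 2 lay at gene ends. Over all p300 regions, 50.2% of those with Zeb2 and 12.4% of those without lay at gene ends. The regions named here therefore do not stand for their classes in place. The 5 highest with Zeb2 lay near Dad1, Sox13, Gm28710, Slain2 and Limk2 and had p300 folds between 26.9 and 42.7, and the 5 highest without it lay near Sptlc2, Abca4, Zbtb44, Specc1 and Gadl1 and had p300 folds between 29.1 and 37.0. None of the 10 lay at a gene end, those of Dad1 and Gadl1 lay over 100 kb from one, and all 10 also had a p300 region in mouse embryonic stem cells (mESCs). Limk2 had Zeb2 folds of 16.7 and 21.1, the highest in both replicates of these 5 apart from Dad1 in replicate 1, at 18.2. Zbtb44 and Gadl1, counted without Zeb2, had a Zeb2 peak in replicate 1 only with folds of 6.83 and 3.93.

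Co-occupied regions were also occupied by the other proteins of the series. Sp5, a Wnt-induced zinc-finger factor tagged with HA in the same way as Zeb2, had a gastruloid region at 52.8% of the Zeb2 regions with p300 and at 12.9% of those without, a difference of 39.9 points (38.0 to 41.6). At p300 regions the shares were 53.3% with Zeb2 and 11% without, a difference of 42.3 points. Split by place after seeing the data, this p300 difference was 19.3 points at gene ends and 27.2 points at distal sites, both below the pooled value. RXRα, a nuclear receptor also tagged with HA, had mESC regions at 36.7% of the Zeb2 regions with p300 and 11.2% of those without, and at 37.7% of the p300 regions with Zeb2 and 18.3% of those without. Its gastruloid lists were very unequal, with peaks of replicates 1 and 2 at 68.6% and 12.2% of the Zeb2 regions with p300 and at 22.1% and 2.67% of those without. No peak of the 8 other antibody libraries was present at 11% of the Zeb2 regions with p300 and 48.9% of those without, and at 10.6% of the p300 regions with Zeb2 and 44.2% of those without. The Sp5 difference at Zeb2 regions was 50.3 points at gene ends and 23.6 points at distal sites, a split chosen after seeing the data. It was 2.89 when overlap was set by summits within 200 bp, and -11.6 when lists were trimmed to 12222 peaks. Zeb2, Sp5 and RXRα share the tag and the HA antibodies, and what the antibodies take down in untagged cells was not tested.

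p300 had an mESC region at 23.4% of the Zeb2 regions with gastruloid p300 and 5.62% of those without, a difference of 17.8 points (16.4 to 19.1). At p300 regions of gastruloids the mESC share was 24.1% with Zeb2 and 25.9% without when both mESC replicates were required. In the single mESC libraries it was 36.7% and 28.2% with Zeb2 and 31.6% and 27.4% without, so the direction turns with the definition.

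**Figure D5:**
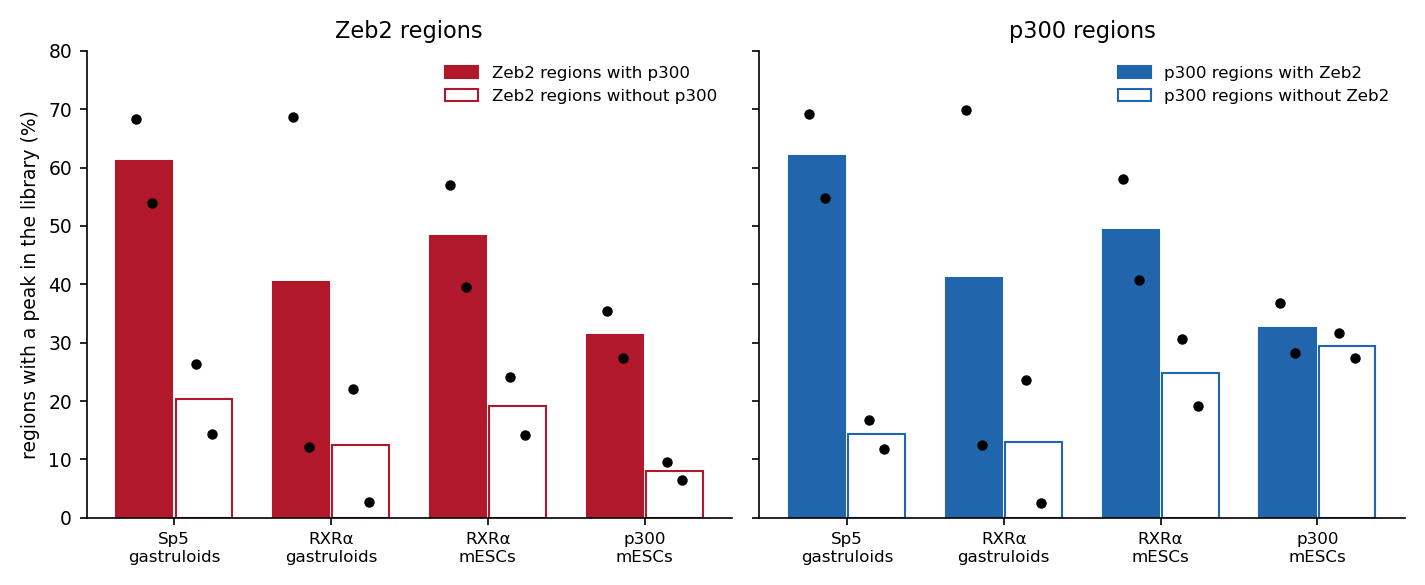
Share of regions with a peak in each of 2 replicate libraries of another protein or stage (y axis, percent; dots are the libraries, bars their mean), for Zeb2 regions with and without p300 (left) and p300 regions with and without Zeb2 (right). Co-occupied regions lie above regions of one protein for Sp5, for both RXRα stages and for mESC p300. For mESC p300 at p300 regions the gap is small, with 36.7% and 28.2% against 31.6% and 27.4%. It turns when both mESC replicates are required.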

How the data were processed

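ChIP-seq was run on 2 libraries each of Zeb2 and p300 from gastruloids; the deposited files hold 1 peak list per library, not pooled. The submitters' processing notes name MACS2 2.2.7, BWA 2.2.1 and fastp 0.20.1 and the build GRCm38.p6 (mm10); roles, order and input use are not given in the sources used here. The deposited lists give each peak a fold enrichment (a ratio), a −log10 p, a −log10 q, a score and a summit position, and every −log10 q was above the value of a q threshold of 0.05. These values are the authors', and were compared only inside a list. The fold and −log10 p, as deposited, together fix the number of fragments at a summit, which came out whole within 0.01; the median of 12 to 23 fragments per peak limits the detection of weak sites.

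Peaks on the 21 main chromosomes that overlapped no input peak were merged with a 1 bp overlap, and stretches with a peak in both replicates were regions. Shares have 95% Wilson intervals and differences of shares 95% Newcombe intervals, with Python 3.11.15, pandas 2.3.3, numpy 2.4.6 and scipy 1.17.1; code was tested on simulated data. A share difference was called where its interval left out 0 with 1 sign in both libraries, and a rank difference where both libraries passed 5 percentile points. No p was computed over regions, which are not replicates. Named regions were those with the highest lower fold of the 2 replicates (8 and 8 for Zeb2, 5 and 5 for p300), named genes those with the most regions (8 with p300, 5 without), and up to 4 genes per list plus Cdh1, Epcam, Zeb1, Zeb2, Ep300, Smad7, Id2, Sox10 and T; further list members were named after their values were seen. A gene that the rule names is not reported here. The 14 lists hold 423 genes, of which 286 are in the RefSeq promoter table. The members and lists were chosen with earlier results of these data known. Alternatives were other overlaps, stricter q, equal list lengths, input peaks kept, other distances and leaving out each library.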

Additional observations from a re-analysis of the deposited data

How the results depend on the processing

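No paired analysis was possible because the results are shares and ranks of regions built from both replicates, with no test across libraries in which a replicate number could be a block. The share of Zeb2 regions with p300 was 63.2% with 50% reciprocal overlap, 49.9% with summits within 200 bp and 23.1% with lists of equal length, and ranged from 51.4 to 82.4% with 1 library left out. The share of p300 regions with Zeb2 was 12.1% and 9.56% under the first 2 settings, 8.67% with a −log10 q of at least 5, 17.5% with lists of equal length and 13.4% with only stretches covered in both replicates, and ranged from 11.5 to 40.7% with 1 library left out. The gene-end difference of Zeb2 regions was 13.1 points with reciprocal overlap, where the call was lost, -8.97 with close summits and -39.0 with equal lengths. The Zeb2 rank difference was 4.78 points with a −log10 q of at least 5, against a main mean of 9.89. The p300 rank difference, -1.33 as a mean and not called, was 0.30 with reciprocal overlap, 5.54 with close summits, 1.23 with covered stretches, -8.24 with equal lengths, 12.9 at distal sites, 5.79 at gene ends, and from -4.66 to 9.36 with 1 library left out. The Sp5 difference at Zeb2 regions was -11.6 with equal lengths. Equal lengths keep 12222 peaks per list; the cause of the other changes was not tested. Under the other settings 74 values of these comparisons kept direction and call, or size, 12 moved, 9 reversed, 2 lost the call and 1 gained it; under settings added after seeing the data 14 kept theirs and 2 reversed. The Zeb2 share of all genes was 69.1% without Zeb2 replicate 2 and 27.0% with equal lengths, and 12 or 13 lists stayed above it. The epithelial p300 share ranged from 44.9 to 78.1% with 1 library left out. Zeb2 replicate 2 had the shortest list and the fewest fragments per peak; the part of depth in this was not tested.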

Other observations

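Transfer RNA genes, short genes transcribed by RNA polymerase III and absent from the protein-coding table, were looked at after seeing the data. Of 10172 Zeb2 regions 105 (1.03%) had a summit within 500 bp of a tRNA gene, and they covered 134 of 408 tRNA genes (32.8%). The share was 0.929% of the Zeb2 regions with p300 and 1.40% of those without, against 0.149% of all p300 regions and 0.0355% of the p300 regions without Zeb2. Sp5 regions had 1.39% and covered 187 tRNA genes (45.8%), RXRα regions had 1.11% in gastruloids and 0.227% in mESCs, and p300 regions in mESCs had 0.0258%. Among the p300 regions with Zeb2 the share was 0.792%. The 3 proteins with HA tags in gastruloids had shares over 1%, but these shares are taken over lists of unequal size. By tRNA genes covered the order differed: gastruloid p300 regions covered 96 (23.5%) and gastruloid RXRα regions 38 (9.31%). The part of the tag or antibody in these values was not tested.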
